A study of Mus musculus with 12 samples.

Results

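*Anks4b*, *Hdhd3*, *Kalrn*, and *Trmt1l* are 4 of the 22456 genes with a deposited level in mouse liver. They were selected on their levels, as genes that were low in fasted *Lpin1*-/- liver and close to *Lpin1*+/+ liver after refeeding, and all 4 passed the minimum for testing that left 11507 genes. The levels that chose them are therefore given here as a description, with differences and errors and with no test. Liver RNA came from 12 male BALB/cByJ mice of both genotypes, *Lpin1*+/+ and *Lpin1*-/-, and each genotype was taken either fasted or refed, which gives 4 groups with n = 3. *Lpin1*-/- mice carry the fatty liver dystrophy mutation in every tissue, the *Lpin1*+/+ mice are wild-type littermates, and the mice were young to mid-adult, with ages that the labels do not give per mouse. Fasted livers were taken after 16 hours without food and refed livers after 5 further hours with chow, so the effects of food and of the hour of the day cannot be told apart.

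Lipin 1 is a phosphatidate phosphatase of the endoplasmic reticulum that also acts in the nucleus on transcription of metabolic genes, and in liver it serves the switch to fasting metabolism. The 4 genes have no known common pathway. *Anks4b* encodes an ankyrin repeat scaffold of the protein complex that links neighbouring microvilli of epithelial cells, and the protein also binds the chaperone encoded by *Hspa5*. *Hdhd3* encodes a hydrolase of the haloacid dehalogenase superfamily, the same fold as the catalytic domain of the lipins, and its substrate is not well known. *Kalrn* encodes kalirin, a guanine nucleotide exchange factor that is studied mainly in neurons. *Trmt1l* encodes a relative of the tRNA methyltransferase TRMT1.

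The labels were first checked against *Lpin1* itself. Its level was between 0.726 and 22.0 RPKM in the 6 *Lpin1*+/+ libraries and between 0.00573 and 0.0597 RPKM in the 6 *Lpin1*-/- libraries. RPKM is a read number divided by transcript length and by library size. Fasted *Lpin1*+/+ replicate 1 stood apart, with 22.0 RPKM of *Lpin1* against 0.726 and 1.76 RPKM in the other 2 mice of its group, and where leaving it out ends a call or moves a value by over 1.5 times, the value without it is given beside the result. Markers of the hepatocyte (5 genes) summed to 52900 to 68600 RPKM in fasted *Lpin1*+/+ and 57200 to 70700 RPKM in fasted *Lpin1*-/- liver. When refed they summed to 31200 to 58800 RPKM in *Lpin1*+/+ and 57300 to 62100 RPKM in *Lpin1*-/- liver, which overlapped. Markers of the Kupffer cell (6 genes) summed to 103 to 209 RPKM in *Lpin1*+/+ and 210 to 500 RPKM in *Lpin1*-/- liver when fasted, which just separates the groups, and to 62.4 to 411 RPKM and 66.4 to 151 RPKM when refed. Markers of bile duct cells summed to 451 RPKM in fasted *Lpin1*-/- replicate 1, to 57 and 24.9 RPKM in the other 2 livers of its group, to 32.1 to 45.8 RPKM in fasted *Lpin1*+/+ and to 19.2 to 103 RPKM in refed livers. The same library had the 500 RPKM of Kupffer cell markers. Without it the fasted genotype differences of the 4 genes were -3.04 for *Anks4b*, -3.76 for *Hdhd3*, -1.31 for *Kalrn*, and -1.41 for *Trmt1l*. Summed markers of endothelial and stellate cells and of lymphocytes overlapped between the fasted genotypes, and no marker was at 0 in every library of a group. Of the 29 marker genes tested, *Lyve1* was the 1 that differed between the fasted genotypes (log2 difference 1.77, limma adjusted *P* = 0.0208). Of all genes tested, 5.63% were called higher and 13.2% lower. With refeeding in *Lpin1*-/- liver the Kupffer cell marker *Clec4f* was the 1 called, and it was lower (-1.275 ± 0.343, limma adjusted *P* = 0.0235). Of all genes, 17.8% were called higher and 2.92% lower there. Both markers were singled out after their values were seen. The part of these cells in the results was not tested, and in whole liver fewer cells of a type and less RNA per cell cannot be told apart.

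*Anks4b* lies at chr7:120173858-120185586 on the plus strand of GRCm38 and has 1 annotated transcript of 2 exons. Its level was 14.1, 12.3, and 19.8 RPKM in the fasted *Lpin1*+/+ livers and 1.06, 1.01, and 0.910 RPKM in the fasted *Lpin1*-/- livers. In the refed state it was 24.4, 25.2, and 30.4 RPKM in *Lpin1*+/+ and 19.8, 27.2, and 22.5 RPKM in *Lpin1*-/- livers. The fasted *Lpin1*-/- livers were far below all others, and the refed genotypes overlapped. In group means, the level in fasted *Lpin1*-/- liver was 6.46% of that in fasted *Lpin1*+/+ liver, a 15.5-fold difference, and the refed *Lpin1*-/- mean was 23.3-fold the fasted one. The refed *Lpin1*+/+ mean was 1.73-fold the fasted *Lpin1*+/+ mean.

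*Hdhd3* lies at chr4:62499008-62503467 on the minus strand and has 2 annotated transcripts, of which the coding one has 2 exons. It had the highest level of the 4 genes. Its level was 18.7, 70.2, and 58.2 RPKM in fasted *Lpin1*+/+ and 3.19, 1.97, and 2.48 RPKM in fasted *Lpin1*-/- livers. With refeeding the level was 105, 120, and 126 RPKM in *Lpin1*+/+ and 52.3, 135, and 105 RPKM in *Lpin1*-/- livers. The replicates spread more than those of the other 3 genes, with replicate 1 the lowest both in fasted *Lpin1*+/+ and in refed *Lpin1*-/- liver. The fasted *Lpin1*-/- mean was 5.19% of the fasted *Lpin1*+/+ mean, a 19.3-fold difference, and the refed *Lpin1*-/- mean was 38.3-fold higher than the fasted one. The refed *Lpin1*+/+ mean was 2.38-fold the fasted one.

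*Kalrn* is a gene of 21 annotated transcripts at chr16:33969073-34573532 on the minus strand, and it had the lowest level of the 4. Its level was 2.91, 1.99, and 2.50 RPKM in fasted *Lpin1*+/+ and 0.253, 0.450, and 0.340 RPKM in fasted *Lpin1*-/- livers. Refed levels were 2.51, 2.90, and 2.17 RPKM in *Lpin1*+/+ and 2.42, 4.04, and 2.79 RPKM in *Lpin1*-/- livers. *Kalrn* differed from the other 3 genes in that the fasted and refed *Lpin1*+/+ livers overlapped, with a refed mean 1.02-fold the fasted mean. The fasted *Lpin1*-/- mean was 14.1% of the fasted *Lpin1*+/+ mean, and the refed *Lpin1*-/- mean was 8.87-fold higher.

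*Trmt1l* lies at chr1:151428542-151458161 on the plus strand and has 7 annotated transcripts. Its level was 6.81, 5.19, and 5.99 RPKM in fasted *Lpin1*+/+ and 1.66, 1.51, and 1.75 RPKM in fasted *Lpin1*-/- livers. The refed level was 9.98, 9.04, and 8.71 RPKM in *Lpin1*+/+ and 9.71, 10.6, and 7.89 RPKM in *Lpin1*-/- livers. It showed the smallest genotype ratio of the 4 in the fasted state, with a fasted *Lpin1*-/- mean at 27.3% of the fasted *Lpin1*+/+ mean, and the refed *Lpin1*-/- mean was 5.73-fold higher. The last 158 bases of the gene overlap *Rnf2* on the opposite strand. Whether reads were counted by strand is not given in the sources used here, and *Rnf2* itself was between 3.53 and 7.77 RPKM in all 12 libraries.

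**Figure D1:**
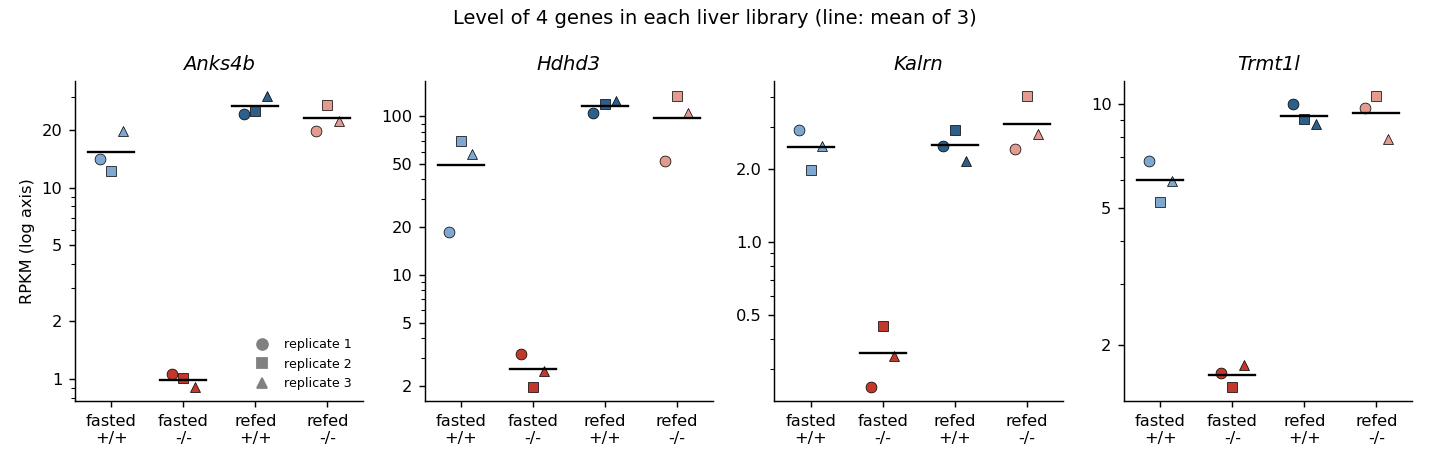
RPKM of *Anks4b*, *Hdhd3*, *Kalrn*, and *Trmt1l* in each of 12 liver libraries on log axes, with 1 symbol per replicate number and a line at the mean of 3. In each panel the 3 fasted *Lpin1*-/- livers lie below the other 9, and the refed genotypes overlap.

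For *Anks4b* and *Hdhd3* the group mean was highest in refed *Lpin1*+/+ liver, followed by refed *Lpin1*-/- and then by the fasted livers in the same genotype order. The means were, in that order, 26.7 ± 3.27, 23.2 ± 3.78, 15.4 ± 3.89, and 0.994 ± 0.0754 RPKM for *Anks4b* (SD, n = 3) and 117 ± 10.7, 97.6 ± 42, 49.1 ± 26.9, and 2.55 ± 0.615 RPKM for *Hdhd3*. For *Anks4b* the refed genotypes overlapped, and the lowest refed *Lpin1*-/- liver stood just above the highest fasted *Lpin1*+/+ liver. For *Hdhd3* the refed *Lpin1*-/- livers overlapped both neighbours in that order. For *Kalrn* and *Trmt1l* the refed *Lpin1*-/- mean came first, before the refed and the fasted *Lpin1*+/+ means. The means, with fasted *Lpin1*-/- liver last, were 3.08 ± 0.846, 2.53 ± 0.365, 2.47 ± 0.460, and 0.348 ± 0.0991 RPKM for *Kalrn* and 9.39 ± 1.37, 9.24 ± 0.659, 6.00 ± 0.808, and 1.64 ± 0.12 RPKM for *Trmt1l*. For *Kalrn* the first 3 groups of the order overlapped, and for *Trmt1l* the first 2 did. In all 4 genes the last group lay apart from the rest.

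On the log2(RPKM + 1) scale of the fit over all genes, the fasted genotype difference, *Lpin1*-/- minus *Lpin1*+/+, was -3.64 ± 0.446 (SE) for *Hdhd3*, -3.01 ± 0.20 for *Anks4b*, -1.40 ± 0.170 for *Trmt1l*, and -1.36 ± 0.190 for *Kalrn*. This scale understates the change of low genes, and *Kalrn* most of the 4. From the lowest value, these differences held ranks 10, 20, 350, and 382 among the 11507 genes. Without fasted *Lpin1*+/+ replicate 1 the value was -4.21 for *Hdhd3*, -3.06 for *Anks4b*, -1.32 for *Trmt1l*, and -1.27 for *Kalrn*. The fasted *Lpin1*-/- group lay wholly below the fasted *Lpin1*+/+ group for 4 of 4 genes, where 22.2% of all genes tested did so. The refed *Lpin1*-/- group lay wholly above the fasted *Lpin1*-/- group for 4 of 4 genes, where 37.5% of all genes tested did so. Both counts follow from how the genes were chosen, and nothing is read from them.

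The refed minus fasted log2 difference in *Lpin1*-/- liver was 4.71 ± 0.446 for *Hdhd3*, 3.59 ± 0.20 for *Anks4b*, 1.97 ± 0.170 for *Trmt1l*, and 1.58 ± 0.190 for *Kalrn*. In rank from the highest, *Hdhd3* was 1, *Anks4b* 4, *Trmt1l* 83, and *Kalrn* 232 of 11507. In *Lpin1*+/+ liver it was 1.43 ± 0.446 for *Hdhd3*, 0.78 ± 0.20 for *Anks4b*, 0.55 ± 0.170 for *Trmt1l*, and 0.03 ± 0.190 for *Kalrn*, whose sign turned (-0.14) when libraries were rescaled by their median ratio. Without fasted *Lpin1*+/+ replicate 1 it was 0.85 for *Hdhd3* and 0.12 for *Kalrn*. The refed *Lpin1*+/+ group lay wholly above the fasted one for 3 of the 4 genes, against 14.6% of all genes. This count rests on the levels that chose the genes, and nothing is read from it. The fasted livers of a genotype enter both a genotype and a feeding difference, so these values are set side by side and are not independent of each other. The feeding difference of *Lpin1*-/- minus that of *Lpin1*+/+ liver was 3.28 ± 0.631 for *Hdhd3*, 2.81 ± 0.282 for *Anks4b*, 1.55 ± 0.268 for *Kalrn*, and 1.42 ± 0.240 for *Trmt1l*.

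After refeeding, the genotypes overlapped for 4 of 4 genes, where 33.9% of all genes tested were separated in 1 direction or the other. This count too follows from how the genes were chosen, and nothing is read from it. The refed genotype difference was -0.20 ± 0.20 (SE) for *Anks4b*, -0.35 ± 0.446 for *Hdhd3*, 0.20 ± 0.190 for *Kalrn*, and 0.01 ± 0.170 for *Trmt1l*. The genes were chosen for closeness in this comparison, so these small differences do not show that the genotypes were equal after refeeding. The error was largest for *Hdhd3*, and a lower level of this gene in refed *Lpin1*-/- liver is not excluded. Without refed *Lpin1*-/- replicate 1 the difference of *Hdhd3* was 0.04. For the other 3 genes the replicate mice differed less.

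**Figure D2:**
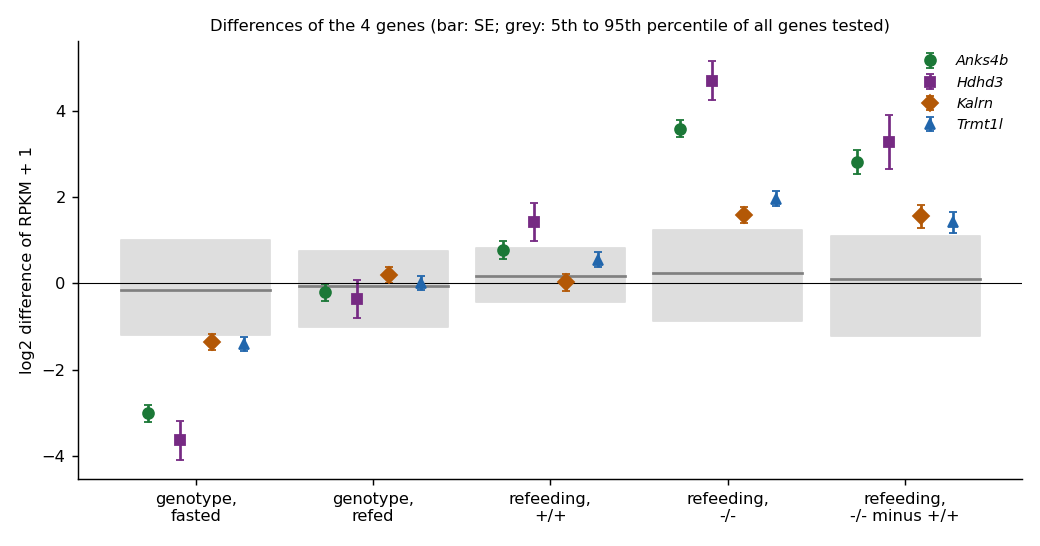
Log2 differences of RPKM + 1 for the 4 genes in 5 contrasts, with bars of 1 SE. The grey band runs from the 5th to the 95th percentile of the 11507 genes tested and the grey line is their median. All 4 genes lie below the band for genotype in the fasted state and above it for refeeding in *Lpin1*-/- liver, and they lie within it for genotype in the refed state.

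The 4 profiles resembled one another over the 12 libraries. Pearson's *r* of log2(RPKM + 1) was highest for *Anks4b* with *Trmt1l* (0.979) and lowest for *Hdhd3* with *Kalrn* (0.907). Because the 4 genes were picked for 1 pattern over the same groups, these coefficients are a description over 12 libraries that share that pattern. By the same measure, the genes most like *Anks4b* among the 11507 were *Slc30a5* and *Tmem39b* (both 0.990) and *S1pr1* (0.986). Those most like *Hdhd3* were *Taf12* (0.983), *Eme2* (0.981), and *2010003K11Rik* (0.979). Those most like *Kalrn* were *Tmem39b* (0.977) and *Zfp426* (0.974), and those most like *Trmt1l* were *Zfp235* (0.987), *Palld* (0.979), and *Zfp438* (0.979). The mean profile of the 4 was nearest to *Tmem39b* (0.990), *Irf3* (0.987), *S1pr1* and *Slc30a5* (both 0.984), and *Cops7b* (0.978). Among these, *S1pr1*, a receptor for the lipid sphingosine phosphate, had group means of 24.9 RPKM in *Lpin1*+/+ and 4.07 RPKM in *Lpin1*-/- liver when fasted, and 32 RPKM in refed *Lpin1*+/+ and 31.0 RPKM in refed *Lpin1*-/- liver. *Palld*, which encodes an actin-associated scaffold, had means of 4.74, 0.518, 9.49, and 8.30 RPKM in the same order. *Irf3*, a transcription factor of the antiviral response, had means of 33.9, 11.8, 44.2, and 42.3 RPKM.

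The genome around each gene was then compared, since genes at 1 locus can share control. Of the 8 nearest tested neighbours, 1 on each side of each gene, 3 were lower and 1 was higher in fasted *Lpin1*-/- than in fasted *Lpin1*+/+ liver (limma adjusted *P* under 0.05), where 13.2% of all genes tested were called lower and 5.63% higher. In refed *Lpin1*-/- against fasted *Lpin1*-/- liver, 3 of 8 were higher, beside 17.8% of all genes called higher and 2.92% called lower. With refeeding in *Lpin1*+/+ liver, where 1.52% of genes were called higher and 0.2% lower, limma called 0 of the 8, and it called 0 for the difference between the refeeding responses, where 1.28% of genes were called in either direction. In the refed state, where 2.6% of genes were called higher and 4.07% lower in *Lpin1*-/- liver, limma called 0 of the 8. The fasted count of 4 depended on single libraries. It was 1 without fasted *Lpin1*+/+ replicate 1, 2 without replicate 2 and 0 without replicate 3 of that group, and 0 without fasted *Lpin1*-/- replicate 2.

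*Crym*, which encodes a thyroid hormone-binding crystallin, lies 793 bases beyond the end of *Anks4b* and is read from the opposite strand, toward it. Its level was 11.5, 12.2, and 11.8 RPKM in fasted *Lpin1*+/+ and 4.71, 3.87, and 2.19 RPKM in fasted *Lpin1*-/- livers. The groups did not overlap, and the log2 difference was -1.52 ± 0.412 (SE, limma adjusted *P* = 0.0252, and 0.0503 without fasted *Lpin1*+/+ replicate 1). In refed livers *Crym* was 12.5, 16.3, and 8.19 RPKM in *Lpin1*+/+ and 4.26, 17.7, and 6.38 RPKM in *Lpin1*-/- livers, which overlapped. On the other side, 52865 bases away, *Tmem159*, which encodes a lipid droplet assembly protein, moved the other way, with 1.04, 0.884, and 1.84 RPKM in fasted *Lpin1*+/+ and 5.01, 3.95, and 2.84 RPKM in fasted *Lpin1*-/- livers (log2 difference 1.13 ± 0.345, limma adjusted *P* = 0.0413, and 0.0920 without that library).

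*Alad*, which encodes an early enzyme of heme synthesis, lies 5701 bases from *Hdhd3* on the same strand. Its level was 138, 293, and 282 RPKM in fasted *Lpin1*+/+ and 148, 66.6, and 56.8 RPKM in fasted *Lpin1*-/- livers. As for *Hdhd3*, fasted *Lpin1*+/+ replicate 1 was the lowest of its group, and here it brought the groups to overlap (log2 difference -1.44 ± 0.405, limma adjusted *P* = 0.0297). Without that library it was -1.79 (adjusted *P* = 0.0143). After refeeding the *Alad* genotype groups did not overlap, with 413, 364, and 517 RPKM in *Lpin1*+/+ and 102, 208, and 168 RPKM in *Lpin1*-/- livers, although that difference did not pass the threshold (-1.48 ± 0.405, limma adjusted *P* = 0.0526). On the other side *Prpf4*, which encodes a spliceosome protein, was 72017 bases away and was higher in refed than in fasted *Lpin1*-/- liver by 1.00 ± 0.284 (limma adjusted *P* = 0.0295).

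*Umps*, which encodes the enzyme of the last steps of pyrimidine synthesis, lies 2034 bases from the end of *Kalrn*. It was lower in fasted *Lpin1*-/- than in fasted *Lpin1*+/+ liver by a log2 difference of -0.78 ± 0.202 (limma adjusted *P* = 0.0205, and 0.0509 without fasted *Lpin1*+/+ replicate 1) and rose with refeeding in *Lpin1*-/- liver by 0.68 ± 0.202 (limma adjusted *P* = 0.0346). *Mylk*, the gene of myosin light chain kinase, 171677 bases beyond the start of *Kalrn*, had differences of -1.02 ± 0.356 in the fasted and -1.28 ± 0.356 in the refed state (limma adjusted *P* = 0.0665 and 0.0555). Its fasted *Lpin1*+/+ levels were 10.7 RPKM in replicate 1 and 2.99 and 3.39 RPKM in the other 2 livers, and without replicate 1 the fasted difference was -0.53. *Rnf2*, a Polycomb ubiquitin ligase gene at the end of *Trmt1l*, had a fasted genotype difference of 0.17 ± 0.248 and a feeding difference in *Lpin1*-/- liver of 0.07 ± 0.248, beside -1.40 and 1.97 for *Trmt1l*. Without fasted *Lpin1*+/+ replicate 1 the fasted genotype difference of *Rnf2* was 0.41.

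*Swt1*, which encodes an RNA endonuclease, and *Trmt1l* point away from each other with 86 bases between their first annotated bases. *Swt1* was 3.82, 2.39, and 2.87 RPKM in fasted *Lpin1*+/+ and 1.04, 1.22, and 2.31 RPKM in fasted *Lpin1*-/- livers, so the groups were separated but the difference of -0.69 ± 0.251 did not pass the threshold (limma adjusted *P* = 0.0764). Refed livers had 5.09, 2.77, and 3.71 RPKM in *Lpin1*+/+ and 6.00, 6.81, and 4.81 RPKM in *Lpin1*-/- livers. Its rise with refeeding in *Lpin1*-/- liver was 1.47 ± 0.251 (limma adjusted *P* = 0.00315) and stayed past the threshold in all 12 fits that left out 1 library. The other calls among the neighbours were each lost in 3 to 8 of those 12 fits.

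**Figure D3:**
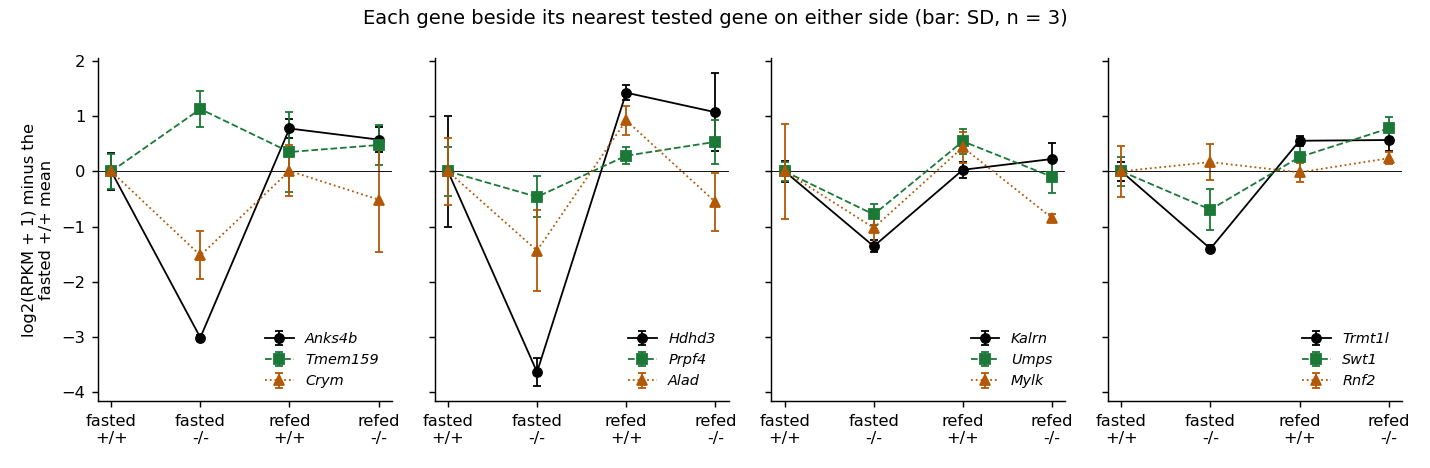
Mean log2(RPKM + 1) relative to the fasted *Lpin1*+/+ mean, with bars of 1 SD over 3 livers, for each of the 4 genes in black and its nearest tested gene on either side in colour. In fasted *Lpin1*-/- liver *Anks4b* and *Hdhd3* lie lowest, *Crym*, *Alad*, and *Umps* lie below the fasted *Lpin1*+/+ mean as well, and *Tmem159* lies above it.

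The bases before the start sites are shown because the 4 genes move together and because *Trmt1l* shares its start region with *Swt1*. Each sequence comes from the RefSeq window (GRCm38.p6) of 250 bases before a start of the gene. It is the part that lies in no annotated exon, read 5′ to 3′ on the gene's strand. The *Hdhd3* window lies inside the gene interval given above, so it precedes an inner start and not the outermost one. Capitals mark matches to the motifs named after them.

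*Anks4b*, chr7:120173608-120173857: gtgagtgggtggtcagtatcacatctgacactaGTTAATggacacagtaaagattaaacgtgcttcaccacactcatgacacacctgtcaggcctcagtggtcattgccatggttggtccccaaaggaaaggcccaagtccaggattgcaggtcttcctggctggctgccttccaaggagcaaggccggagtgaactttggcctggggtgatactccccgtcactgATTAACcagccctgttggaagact

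*Hdhd3*, chr4:62502277-62502450, minus strand: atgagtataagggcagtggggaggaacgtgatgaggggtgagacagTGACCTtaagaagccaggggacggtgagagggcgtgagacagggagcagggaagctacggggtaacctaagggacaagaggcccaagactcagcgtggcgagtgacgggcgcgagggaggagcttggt

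*Trmt1l* and *Swt1*, chr1:151428456-151428541, plus strand: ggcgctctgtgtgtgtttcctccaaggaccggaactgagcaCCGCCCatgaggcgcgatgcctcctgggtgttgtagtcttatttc

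In the *Anks4b* window both matches are to GTTAAT, a half-site of the liver factor HNF1, on 1 strand or the other, which occurs in 6.43% of the 32851 windows. In *Hdhd3* the match is to AGGTCA, a half-site of nuclear receptors, found in 14.0% of windows. In *Trmt1l* it is to GGGCGG, the GC box, which occurs in 32.7% of windows and also in the exonic part of the *Hdhd3* window that is not printed. The *Kalrn* window, which belongs to 1 of several annotated starts, held none of the motifs searched and is not printed. No motif was found in more than 2 of the 4 windows. The CCAAT box (CCAAT, 33.8% of windows), the TATA box (TATAAA, 12.4%), the E-box (CACGTG, 6.02%), the cAMP response element (TGACGTCA, 1.55%), the D-box (TTATGTAA, 0.819%), an HNF4A site (CAAAGTCCA, 0.384%), and a forkhead site (TGTTTAC, 3.17%) were in none. All 10 motifs were searched on both strands in the 250 bases, and a match or its absence says nothing of binding. *Trmt1l*, *Hdhd3*, and *Kalrn* had windows of 60.8% G and C, and *Anks4b* of 52.8%, where the median of all windows was 52.4%. The number of CG pairs was 18 in *Trmt1l*, 16 in *Hdhd3*, 9 in *Kalrn*, and 3 in *Anks4b*, where the median was 6.

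The exon-skipping events of the 4 genes give a readout that was not used to pick them. An event has inclusion counts, reads on the exon or its junctions, and skipping counts, reads on the junction that leaves it out. The fasted table held 84592 events, with 9 in *Trmt1l*, 1 in *Kalrn*, and 0 in *Anks4b* and *Hdhd3*. The refed table held 75694 events, with 18 in *Trmt1l*, 4 in *Kalrn*, 2 in *Hdhd3*, and 1 in *Anks4b*. Of the 10 fasted events 6 had the 10 counts per library needed for testing, and of the 25 refed events 19 had. The ratio of inclusion to skipping was compared on the log2 scale, each count divided by the length its form offers. Where inclusion counts are near 0 this ratio also moves with the number of reads on the gene, which is what the genes were chosen for, so both counts are given.

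In *Trmt1l*, an exon of 57 bases in intron 9 (chr1:151450324-151450380, plus strand) had the largest counts of its rarer form among the fasted *Trmt1l* events. It is no exon of the main coding transcript, and it lies within an exon of an annotated transcript that keeps part of the intron. With 20 bases on either side in lower case and the exon in capitals it reads, in that transcript:

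*Trmt1l* exon: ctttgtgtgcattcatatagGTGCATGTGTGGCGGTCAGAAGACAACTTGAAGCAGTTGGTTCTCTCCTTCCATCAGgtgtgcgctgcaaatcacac

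The exon is preceded by ag and followed by gt, the usual ends of introns. Its length is a multiple of 3, and read in the frame of the coding transcript it holds 1 stop codon, at codon 446 of 728, the stop codon counted.

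In the fasted livers, inclusion counts of this exon were 8, 14, and 3 in *Lpin1*+/+ and 9, 15, and 29 in *Lpin1*-/-, and skipping counts were 58, 36, and 61 in *Lpin1*+/+ and 5, 8, and 3 in *Lpin1*-/-. Mean skipping counts in *Lpin1*-/- liver were thus 10.3% of those in *Lpin1*+/+ liver, while inclusion counts overlapped between the genotypes and were not lower. In percent of transcripts, inclusion was 9.03 ± 7.65 in *Lpin1*+/+ and 61.3 ± 19.6 in *Lpin1*-/- liver (SD, n = 3). The log2 ratio was 4.33 ± 0.937 (SE) higher in *Lpin1*-/- liver (limma adjusted *P* = 0.0126). Without the fasted *Lpin1*+/+ library at position 1 or 3 of its list the call was lost (adjusted *P* = 0.0609 and 0.0761).

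In the refed livers, where *Trmt1l* levels overlapped, inclusion counts were 4, 2, and 4 in *Lpin1*+/+ and 28, 19, and 25 in *Lpin1*-/-, and skipping counts were 88, 95, and 114 and 93, 90, and 86. Here the inclusion reads of the genotypes were far apart and the skipping reads were close, with inclusion at 1.80 ± 0.643 and 12.7 ± 2.09 percent. The difference of 2.84 ± 0.607 did not pass the threshold over all events (limma adjusted *P* = 0.0658), and it did with 1 in place of 0.5 added to each count (adjusted *P* = 0.0276). Between fasted and refed *Lpin1*-/- liver the ratio fell by 3.47 ± 0.799 (limma adjusted *P* = 0.0198). That call was lost without the refed *Lpin1*-/- library at list position 2 or 3 (adjusted *P* = 0.0708 and 0.0506). In *Lpin1*+/+ liver the refed minus fasted value was -1.99 ± 0.799 (adjusted *P* = 0.964), and the difference between the responses was -1.48 ± 1.13 (adjusted *P* = 0.620), so the responses were not shown to differ. Reads from unspliced RNA over these 57 bases count as inclusion too, and their share was not tested. The refed events also held a form of 59 bases with the same start (chr1:151450324-151450382), whose length is no multiple of 3. Its inclusion counts were 2, 0, and 4 in *Lpin1*+/+ and 13, 15, and 9 in *Lpin1*-/- livers, beside the same skipping counts. The log2 ratio difference was 2.96 ± 0.823 (limma adjusted *P* = 0.140).

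The other *Trmt1l* event past the threshold was an exon of 38 bases at chr1:151442205-151442242 that is not annotated. Its inclusion counts were 1, 0, and 0 in fasted *Lpin1*+/+ and 2, 2, and 4 in fasted *Lpin1*-/- livers, and its skipping counts were 82, 34, and 45 and 16, 8, and 6. The log2 ratio difference was 4.46 ± 0.788 (limma adjusted *P* = 0.00485). Both counts differed, and the inclusion counts were at most 4. Among the refed *Trmt1l* events, the one with most counts of its rarer form was an unannotated exon of 132 bases at chr1:151444940-151445071. Its inclusion counts were 17, 13, and 8 in refed *Lpin1*+/+ and 27, 30, and 28 in refed *Lpin1*-/- livers, and its skipping counts were 78, 51, and 59 and 92, 116, and 58. The inclusion counts did not overlap between the genotypes and the skipping counts did. Inclusion was 6.43 ± 1.83 and 10.4 ± 3.23 percent, and the log2 ratio difference of 0.73 ± 0.620 did not pass the threshold (limma adjusted *P* = 0.650). In the fasted livers its inclusion counts were 14, 3, and 5 in *Lpin1*+/+ and 0, 2, and 0 in *Lpin1*-/-, with skipping counts of 43, 37, and 47 and 17, 3, and 8, too few for the test.

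The exon of 63 bases at chr1:151454978-151455040, part of the coding transcript, was included nearly always. Its inclusion counts were 173 or more in each fasted *Lpin1*+/+ and 47, 51, and 41 in the fasted *Lpin1*-/- livers, with 1 skipping read in all 6. These counts show the level of *Trmt1l* in reads on 1 exon. In the refed livers they were 250, 315, and 344 in *Lpin1*+/+ and 309, 346, and 243 in *Lpin1*-/-.

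In *Kalrn*, the event with the most counts concerned an annotated coding exon of 93 bases, exon 37 of 60 in the coding transcript with the most exons (chr16:34049830-34049922, minus strand). Of the 7 annotated transcripts with both neighbouring exons, 4 have it and 3 leave it out. It is shown from that transcript in capitals, between the last 20 bases of the exon before and the first 20 of the exon after:

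*Kalrn* exon: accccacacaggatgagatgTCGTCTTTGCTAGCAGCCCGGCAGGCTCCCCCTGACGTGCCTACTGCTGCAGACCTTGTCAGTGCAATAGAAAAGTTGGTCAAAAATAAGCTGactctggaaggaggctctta

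The exon adds 31 codons and keeps the frame. It was mostly skipped in liver. Skipping counts were 152, 92, and 100 in fasted *Lpin1*+/+ and 4, 10, and 15 in fasted *Lpin1*-/- livers, and 120, 138, and 99 in refed *Lpin1*+/+ and 128, 259, and 136 in refed *Lpin1*-/- livers. In the fasted *Lpin1*-/- livers the mean of these junction reads was 8.43% of the *Lpin1*+/+ mean. Inclusion counts were 3, 3, and 4 and 6, 2, and 0 in the fasted livers, and 2, 4, and 2 and 2, 4, and 1 in the refed livers, and they overlapped between all groups.

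Inclusion of the *Kalrn* exon was 1.28 ± 0.422 percent in fasted *Lpin1*+/+ and 15.5 ± 20.5 percent in fasted *Lpin1*-/- liver, with 1 *Lpin1*-/- library at 0 of 15 counts. The log2 ratio difference of 2.72 ± 1.16 did not pass the threshold (limma adjusted *P* = 0.162), and without that library it did (adjusted *P* = 0.0233). In refed livers it was -0.73 ± 0.605 (adjusted *P* = 0.641), with 0.918 ± 0.263 percent in *Lpin1*+/+ and 0.538 ± 0.197 percent in *Lpin1*-/- liver. With refeeding in *Lpin1*-/- liver the ratio fell by 3.85 ± 1.02 (limma adjusted *P* = 0.0355), a call that was lost when any of 5 of the 6 libraries compared was left out, with adjusted *P* from 0.0653 to 0.116. The response in *Lpin1*+/+ liver was -0.40 ± 1.02 (adjusted *P* = 1.00), and the difference between the responses was -3.45 ± 1.44 (adjusted *P* = 0.312, and 0.0456 without the library with 0 inclusion counts).

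**Figure D4:**
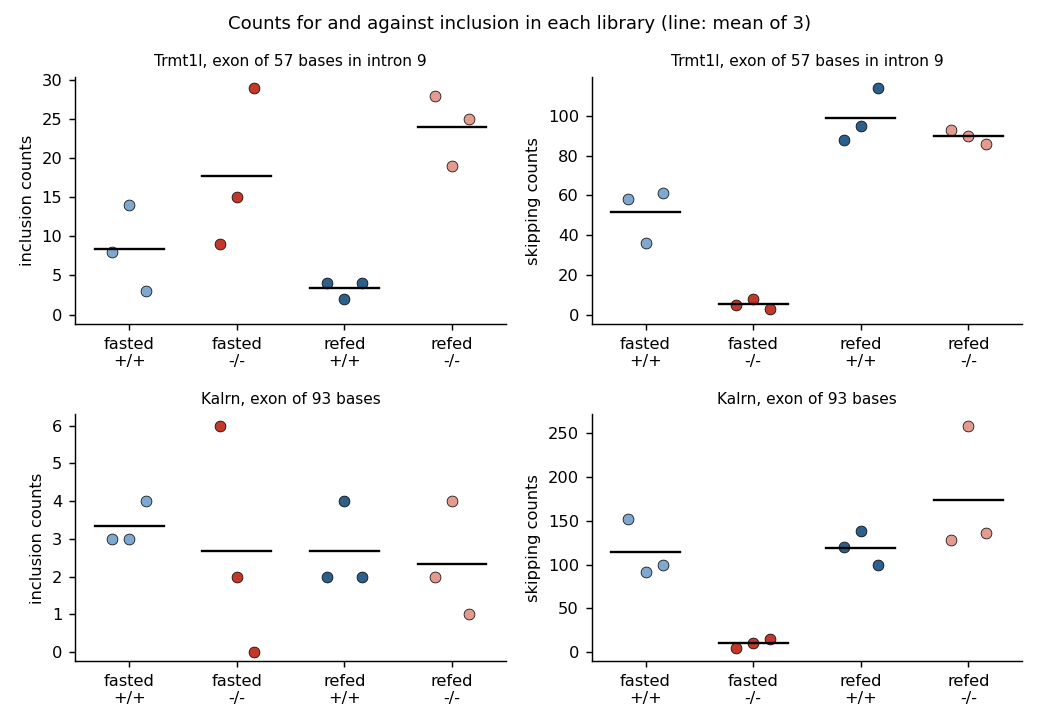
Inclusion counts (left) and skipping counts (right) of the *Trmt1l* exon of 57 bases (top) and the *Kalrn* exon of 93 bases (bottom) in 3 libraries of each group, with a line at the mean. For *Trmt1l*, refed *Lpin1*-/- livers have 19 to 28 inclusion counts against 2 to 4 in refed *Lpin1*+/+ livers at like skipping counts. For *Kalrn*, inclusion counts overlap in all groups and skipping counts are lowest in fasted *Lpin1*-/- liver.

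*Anks4b* and *Hdhd3* had events in the refed table alone, and both concern unannotated exons that were nearly never used. The *Anks4b* exon of 49 bases (chr7:120180773-120180821) had 0 or 1 inclusion count per library against 251, 312, and 401 skipping counts in *Lpin1*+/+ and 319, 412, and 257 in *Lpin1*-/- livers. The *Hdhd3* exon of 99 bases (chr4:62501555-62501653) had 0 to 4 inclusion counts against 797, 1056, and 1075 skipping counts in *Lpin1*+/+ and 537, 1298, and 810 in *Lpin1*-/- livers. The ratio differences were -0.56 ± 0.818 and -1.20 ± 1.06 (limma adjusted *P* = 0.805 and 0.663). The skipping reads, which cross the usual splice junction of each gene, overlapped between the refed genotypes.

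In all, 2 of the 6 tested events of the 4 genes were called between the fasted genotypes, where 10.8% of 69644 events were. In these 2 events mean skipping counts in fasted *Lpin1*-/- liver were 18.6% and 10.3% of those in fasted *Lpin1*+/+ liver. Such counts fall with the gene level that chose the genes, so the 2 calls are not independent of that choice. In the refed state limma called 0 of 19, where 1.03% of 65231 events were called. At an unadjusted limma *P* under 0.05 there were 4 of the 19, all in *Trmt1l*, beside 9169 of the 65231 events. Of the 4 events found in both tables with enough counts, 2 were called for refeeding in *Lpin1*-/- liver (7.32% of 28444 events). None of the 4 was called for refeeding in *Lpin1*+/+ liver, where limma called 0 events and 0.0% of 28444, with 1378 at an unadjusted *P* under 0.05. None was called for the difference between the responses, where 0.513% were. Several of these events share an exon end or a junction, so they are not independent.

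Relatives and partners of each gene were taken from 5 lists, none of which holds the 4 genes themselves, and 4 of the lists are described. For *Anks4b*, the list of 15 genes of microvillus adhesion and ankyrin scaffolds had only 5 members above the minimum level in liver. Between the fasted genotypes limma called 0 of the 5, and 0 had an unadjusted *P* under 0.05. *Hspa5*, the endoplasmic reticulum chaperone to which the ANKS4B protein binds, was 184, 306, and 274 RPKM in fasted *Lpin1*+/+ and 322, 308, and 303 RPKM in fasted *Lpin1*-/- livers. With refeeding it rose to 1336, 956, and 1693 RPKM in *Lpin1*+/+ (log2 difference 2.38 ± 0.281, limma adjusted *P* = 0.00842) and to 521, 854, and 801 RPKM in *Lpin1*-/- livers (1.19 ± 0.281, adjusted *P* = 0.0134). The difference between these responses did not pass the threshold (-1.19 ± 0.398, adjusted *P* = 0.156). The relative *Anks3*, an ankyrin repeat protein of cilia, rose with refeeding in *Lpin1*-/- liver by 0.64 ± 0.176 (adjusted *P* = 0.0253). After rescaling by median ratio neither gene was called for refeeding in *Lpin1*-/- liver.

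For *Hdhd3*, 17 of 20 haloacid dehalogenase enzymes were tested. Between the fasted genotypes 2 were lower in *Lpin1*-/- liver (11.8%) and 0 were higher, where 13.2% of all genes were called lower and 5.63% higher, with a median log2 difference of -0.12 against -0.14 over all genes. *Pmm2*, a phosphomannomutase of protein glycosylation, had a profile that resembled that of *Hdhd3* on a smaller scale. It was 29.8, 19.8, and 28.2 RPKM in fasted *Lpin1*+/+ and 9.35, 10.8, and 13.5 RPKM in fasted *Lpin1*-/- livers (-1.13 ± 0.204, limma adjusted *P* = 0.00369). After refeeding it was 31.1, 24.6, and 34.0 RPKM and 27.5, 31.3, and 28.6 RPKM, a rise of 1.32 ± 0.204 in *Lpin1*-/- liver (adjusted *P* = 0.00196). *Phospho1*, which frees phosphate from phosphocholine and phosphoethanolamine, was lower in fasted *Lpin1*-/- liver by -1.73 ± 0.416 (adjusted *P* = 0.0151) and had no call with refeeding in *Lpin1*-/- liver (0.61 ± 0.416, adjusted *P* = 0.316). With refeeding in *Lpin1*-/- liver *Enoph1*, of methionine salvage, rose by 0.48 ± 0.153 (adjusted *P* = 0.0471) and the pyrimidine nucleotidase *Nt5c3* fell by 0.77 ± 0.234 (adjusted *P* = 0.0384), and 1 enzyme rose and 1 fell after rescaling. The *Enoph1* call was lost in 10 and the *Nt5c3* call in 8 of the 12 fits that left out 1 library. In the refed state 3 enzymes were higher in *Lpin1*-/- liver, namely *Lhpp*, *Nt5m*, and *Phospho2*, with differences of 1.10, 0.97, and 1.20 (limma adjusted *P* = 0.0216, 0.0371, and 0.0116), named after their values were seen. They are 17.6% of the list, where 2.6% of all genes were called higher and 4.07% lower. With the replicate number as a block *Lhpp* and *Phospho2* passed (adjusted *P* = 0.0459 and 0.0295), *Nt5m* did not (0.0579), and 1.8% of all genes were called higher. With 1 library left out 0 to 3 of the enzymes were higher, and 0 without refed *Lpin1*-/- replicate 2.

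For *Kalrn*, 43 of 63 other guanine nucleotide exchange factors were tested. In fasted *Lpin1*-/- liver 8 were lower (18.6%) and 1 was higher, with a median of -0.28 against -0.14 over all genes. *Farp1* was 8.07, 3.19, and 4.96 RPKM in fasted *Lpin1*+/+ and 0.647, 1.28, and 1.36 RPKM in fasted *Lpin1*-/- livers, and the groups did not overlap (-1.56 ± 0.316, limma adjusted *P* = 0.00699). *Plekhg3* was lower as well, by -1.29 ± 0.323 (adjusted *P* = 0.0179), and *Arhgef37* was higher by 1.39 ± 0.428 (adjusted *P* = 0.0420). Of the 12 fits that left out 1 library, 2 lost the *Plekhg3* call and 7 lost the *Arhgef37* call. With refeeding in *Lpin1*-/- liver 8 of the 43 rose (18.6%) and 0 fell. Among them *Arhgef18* rose by 1.53 ± 0.383 and *Farp1* by 1.48 ± 0.316 (limma adjusted *P* = 0.0169 and 0.0084). Of all genes, 13.2% were called lower between the fasted genotypes and 17.8% higher with refeeding. After rescaling by median ratio 10 of the 43 were lower (23.3%) and 2 higher in fasted *Lpin1*-/- liver, where 11.4% of all genes were lower and 7.92% higher. With refeeding in *Lpin1*-/- liver 6 then rose (14%) and 2 fell, where 11% of all genes rose and 4.97% fell. With 1 library left out 5 to 14 of the 43 were lower in fasted *Lpin1*-/- liver, with 5 without fasted *Lpin1*+/+ replicate 3 or fasted *Lpin1*-/- replicate 1 and 14 without fasted *Lpin1*+/+ replicate 2. With refeeding 2 (without fasted *Lpin1*-/- replicate 1) to 12 (without fasted *Lpin1*+/+ replicate 1) rose, with 3 without refed *Lpin1*-/- replicate 1 or 2 and 5 without replicate 3 of that group.

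For *Trmt1l*, 29 of 31 genes of tRNA methylation were tested. In fasted *Lpin1*-/- liver 5 were lower (17.2%) and 0 higher, where 13.2% of all genes were lower, with a median of -0.30 against -0.14 over all genes. *Mettl8*, a methyltransferase of mitochondrial tRNA, was 5.32, 4.14, and 5.22 RPKM in fasted *Lpin1*+/+ and 1.34, 1.93, and 1.56 RPKM in fasted *Lpin1*-/- livers (-1.18 ± 0.184, limma adjusted *P* = 0.00184). *Trmt12*, of wybutosine synthesis, was lower by -0.91 ± 0.217 and *Trmt2b*, of mitochondrial RNA methylation, by -0.78 ± 0.184 (adjusted *P* = 0.0146 and 0.0142). After rescaling, 3 of the 29 were lower (10.3%) and 0 higher, where 11.4% of all genes were lower. With 1 library left out 1 (without fasted *Lpin1*+/+ replicate 3) to 7 were lower, with 2 without fasted *Lpin1*-/- replicate 1 or 2.

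With refeeding in *Lpin1*-/- liver 16 of the 29 tRNA methylation genes rose (55.2%) and 0 fell, with a median of 0.57 against 0.25 over all genes, beside the 17.8% of all genes called higher. The count depended on the scaling of the libraries. When each library was divided by its median ratio to the mean library, 5 of the 29 rose and 0 fell, where 11% of all genes rose. With 1 library left out 5 (without refed *Lpin1*-/- replicate 2) to 19 rose, with 7 or 8 without fasted *Lpin1*-/- replicate 1 or 2 or refed *Lpin1*-/- replicate 1 or 3. *Ftsj1*, an RNA ribose methyltransferase, was 7.95, 8.32, and 14.4 RPKM in fasted and 24.6, 32.1, and 28.8 RPKM in refed *Lpin1*-/- livers (1.43 ± 0.229, limma adjusted *P* = 0.00221). *Mettl1*, which adds 7-methylguanosine, rose by 1.26 ± 0.259 (adjusted *P* = 0.00734). *Mettl6*, which methylates cytidine in serine tRNA, was 5.69, 4.54, and 5.92 RPKM in fasted and 12.0, 14.0, and 14.3 RPKM in refed *Lpin1*-/- livers (1.18 ± 0.157, adjusted *P* = 0.000919). In *Lpin1*+/+ livers *Mettl6* was 8.27, 7.91, and 8.71 RPKM fasted and 8.52, 8.07, and 8.51 RPKM refed, so the refed genotypes did not overlap (0.62 ± 0.157, adjusted *P* = 0.0395, and 0.0695 with the replicate number as a block). Between the refed genotypes *Mettl6* was the 1 higher and *Mettl8* the 1 lower gene of the 29 (3.45% each). Of all genes, 2.6% were higher and 4.07% lower. The refed difference of *Mettl8* was -0.71 ± 0.184 (limma adjusted *P* = 0.0441, and 0.0832 with that block), a call lost in 9 of the 12 fits that left out 1 library. Its rise with refeeding in *Lpin1*-/- liver did not pass the threshold (0.54 ± 0.184, adjusted *P* = 0.0579). In *Lpin1*+/+ liver the list also had a median above that of all genes with refeeding, 0.30 against 0.185. There 1 gene of the list was called (3.45%), *Trmt61a* (1.22 ± 0.253, adjusted *P* = 0.0355), named after its values were seen. Of all genes, 1.52% were called higher. For the difference between the responses 1 of the 29 was called, *Mettl6* (3.45%), where 1.28% of all genes were called, so for most of the list the responses were not shown to differ. After rescaling by median ratio 0 of the 29 were called for refeeding in *Lpin1*+/+ liver.

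Rescaling by median ratio moved the median of all genes from 0.185 to -0.001 for refeeding in *Lpin1*+/+ liver and from 0.250 to 0.059 for refeeding in *Lpin1*-/- liver. Of the calls, 85.9% were higher with refeeding in *Lpin1*-/- liver before it and 68.8% after it. The share of higher calls went from 88.4% to 64.0% with refeeding in *Lpin1*+/+ liver, from 29.9% to 41.0% for genotype in the fasted state, and from 39% to 57.8% for genotype in the refed state. The 4 genes kept their signs for genotype in the fasted state and for refeeding in *Lpin1*-/- liver.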

How the data were processed

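RNA-Seq of liver from 12 mice was grouped by the labels into 4 groups of 3. Per the labels and methods, the authors aligned stranded paired reads to GRCm38 with HISAT2 (2.0.5), counted genes with HTSeq (0.6.0), both versions from the submitters' processing notes, and deposited RPKM. They ran rMATS (version not given in the sources used here) for exon skipping and deposited, for each event, comma-joined counts of both forms without replicate numbers, besides p-values and inclusion levels, which were not used. A table of selected events served only to check which list is which group (1523 and 1719 shared events had the same counts).

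Here log2(RPKM + 1) was fitted with limma (3.58.1, R 4.3.3), with a trend, to 11507 genes of mean RPKM of at least 0.5, as 4 group means with contrasts. For events with 10 or more counts in each library compared, limma was fitted to the log2 inclusion ratio with 0.5 added to each count. Same-numbered libraries deviated together between the refed genotypes (*r* from 0.162 to 0.297 in 3 pairs), a hint from the data and not from the labels, so values with the replicate number as a block are given beside refed calls it ends. They did not between the fasted genotypes (-0.474 to -0.226) or between feeding states in *Lpin1*-/- liver (-0.441 to -0.204). Between feeding states in *Lpin1*+/+ liver they did so in part (0.251, 0.083, and -0.016). They deviated together most between fasted *Lpin1*+/+ and refed *Lpin1*-/- liver (0.743, 0.545, and 0.39), groups that no genotype or feeding difference compares directly. Between fasted *Lpin1*-/- and refed *Lpin1*+/+ liver the values were -0.455, -0.067, and 0.445. Adjustment was by Benjamini and Hochberg over all features of a contrast, with a threshold of 0.05. Both fits were tested on simulated data. The 4 genes and the lists were chosen with earlier results of these data known. Also named are *Lpin1*, the nearest tested neighbours, the 3 list genes per direction with the largest called change between the fasted genotypes and with refeeding in *Lpin1*-/- liver, the most correlated genes, every called event of the 4 genes, and the event of each gene with most counts of its rarer form. Of these, 2 genes and 1 of the 5 lists are not reported here. RPKM carries no read counts, so read depth is known here only for junctions and exons. Positions and transcripts are from GENCODE M21 and start-site windows from RefSeq. Other tools were Python 3.11.15, pandas 2.3.3, numpy 2.4.6, and matplotlib 3.10.9. Alternatives were a pseudocount of 0.1, no filter, rescaling by median ratio, a replicate block, only the 6 libraries compared, at least 20 or on average 10 counts, 1 added to each count, and each library left out.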

Additional observations from a re-analysis of the deposited data

Results flagged for a closer look

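*Mettl6*, of the tRNA methylation list, changed differently with refeeding in the 2 genotypes. The log2 rise in *Lpin1*-/- liver was larger than the change in *Lpin1*+/+ liver by 1.17 ± 0.222 (SE, limma adjusted *P* = 0.0325 for the difference itself), and all 3 refed *Lpin1*-/- livers were above all 3 fasted ones. The adjusted *P* ranged from 0.0383 to 0.109 when 1 library was left out, and the call was lost in 7 of 12 such fits. With the replicate number as a block it was 0.0656.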

How the results depend on the processing

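No called value changed sign under the alternatives run. With a pseudocount of 0.1 the differences of *Anks4b* were -3.80 between the fasted genotypes, 4.40 for refeeding in *Lpin1*-/- liver, and 3.59 between the responses. For *Kalrn* they were -2.53, 2.82, and 2.78, and for *Trmt1l* -1.81, 2.44, and 1.82. After rescaling, refeeding in *Lpin1*+/+ liver gave 0.55 for *Anks4b* and 0.34 for *Trmt1l*, and refeeding in *Lpin1*-/- liver gave 1.79 for *Trmt1l*.

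List genes called between the fasted genotypes (16) numbered 6 with only the 6 libraries compared and 7 to 21 with 1 library left out. Between the refed genotypes (8) they numbered 5 with a pseudocount of 0.1, 5 with only those 6 libraries, and 0 (without refed *Lpin1*-/- replicate 2) to 9 with 1 left out. For refeeding in *Lpin1*+/+ liver (2) they numbered 1 after rescaling, 0 with 6 libraries, and 1 to 2 with 1 left out. For refeeding in *Lpin1*-/- liver (29) they numbered 15 after rescaling and 9 (without refed *Lpin1*-/- replicate 2) to 40 (without fasted *Lpin1*+/+ replicate 1) with 1 left out, and for the difference between the responses (1) 0 to 2. Neighbours called between the fasted genotypes (4) numbered 1 with no filter and 0 to 4 with 1 library left out. Between the refed genotypes (0) they numbered 1 after rescaling and 0 to 2 with 1 left out, and for refeeding in *Lpin1*-/- liver (3) 1 to 3.

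Exon events of the 4 genes called between the fasted genotypes (2) numbered 0 with at least 20 counts, where the called events no longer entered the fit, and 1 to 4 with 1 library left out. Between the refed genotypes (0) there was 1 with 1 added to each count. For refeeding in *Lpin1*-/- liver (2) there were 0 with at least 20 counts and 0 to 2 with 1 left out, and for the difference between the responses (0) there were 0 to 1. No paired analysis was possible for the events because their counts carry no replicate numbers.

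With the replicate block the list genes called were 2 between the refed genotypes, 1 for refeeding in *Lpin1*+/+ liver, and 0 for the difference between the responses, and 2 neighbours were called between the fasted genotypes.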
